A study of Mus musculus with 8 samples.

Results

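RXR peaks were examined at 5 genes of intravascular triglyceride supply in hearts of newborn mice (postnatal day 0): Lpl, Angptl4, Gpihbp1, Lmf1 and Vldlr. A peak was taken when its summit lay inside a gene or within 50 kb of either gene end (RefSeq, mm10), which gave 33 of the 23961 peaks in 4 lists. The retinoid X receptor (RXR) was mapped by chromatin immunoprecipitation and sequencing in wild-type hearts (WT) and in hearts lacking Rxra and Rxrb in cardiomyocytes (edKO). There were 2 hearts per genotype, replicates 3 and 4, written here as WT3, WT4, edKO3 and edKO4, and every heart gave 1 immunoprecipitate, 1 input and 1 peak list. Chromatin came from the total heart, so in edKO hearts the other cell types kept both genes, and the labels do not name the Cre driver. Fewer cells with a bound site and less binding per cell cannot be told apart in such samples, and the lists give no expression by which the deletion or the cell types could be checked.

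Lipoprotein lipase, encoded by Lpl, releases fatty acids from circulating triglyceride-rich lipoproteins at the capillary wall, and heart muscle is one of its main sites of synthesis. The enzyme matures in the endoplasmic reticulum with the help of LMF1, is carried to the capillary lumen by the endothelial protein GPIHBP1, and is inhibited by the secreted protein ANGPTL4. VLDLR, the very low density lipoprotein receptor, binds the same lipoproteins and aids their uptake. RXR binds DNA as the partner of the fatty acid-sensing receptors PPAR and of other nuclear receptors, and Angptl4 is a well known PPAR target.

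Promoter sequences are shown where the peaks bear on them, each running from 250 bases before to 50 after a start site (RefSeq, GRCm38.p6, plus strand, 5′ to 3′). The window of Cerox1, a long noncoding RNA gene known to act on mitochondrial complex I, held the summit of a peak of WT3 that lay 8.36 kb before Lmf1. The overlapping window of the protein-coding gene Sox8, which encodes a transcription factor and is read from the other strand (chr17:25570637-25570936), held the same summit and is not printed. The 21 bases around that summit are in capitals. The windows of the members Lmf1 (chr17:25578924-25579223) and Vldlr (chr19:27216234-27216533) held no summit in any of the 4 lists and are shown for contrast, in lower case throughout. The Cerox1 window is chr17:25570561-25570860.
Cerox1: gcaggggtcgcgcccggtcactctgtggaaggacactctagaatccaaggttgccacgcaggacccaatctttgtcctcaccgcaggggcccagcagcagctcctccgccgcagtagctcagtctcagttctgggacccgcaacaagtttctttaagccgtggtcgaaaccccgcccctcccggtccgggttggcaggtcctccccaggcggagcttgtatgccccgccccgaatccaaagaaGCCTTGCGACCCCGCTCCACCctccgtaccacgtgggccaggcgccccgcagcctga
Lmf1: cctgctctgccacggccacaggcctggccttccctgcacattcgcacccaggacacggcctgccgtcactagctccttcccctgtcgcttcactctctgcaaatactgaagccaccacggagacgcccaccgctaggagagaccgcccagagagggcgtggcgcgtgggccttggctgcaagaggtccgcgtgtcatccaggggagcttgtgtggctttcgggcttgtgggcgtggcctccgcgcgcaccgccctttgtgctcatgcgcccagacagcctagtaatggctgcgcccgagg
Vldlr: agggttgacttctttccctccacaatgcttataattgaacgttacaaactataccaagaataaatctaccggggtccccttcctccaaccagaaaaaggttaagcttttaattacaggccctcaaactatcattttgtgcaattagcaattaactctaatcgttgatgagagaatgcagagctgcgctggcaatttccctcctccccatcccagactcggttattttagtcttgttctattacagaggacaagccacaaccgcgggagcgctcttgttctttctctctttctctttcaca
The classical core motif of the receptors, AGGTCA, was searched on both strands, alone and as a direct repeat of the core with any 1, 4 or 5 bases between, the repeats with up to 2 mismatches. None of these 3 windows held a match, and neither did the Sox8 window. Among all 32851 promoter windows of this length, 16.3% held the core, which is also part of each repeat, and 3.86%, 3.02% and 2.79% held the repeats with 1, 4 and 5 bases between. The G and C content was 65.3% at Cerox1, 66.3% at Lmf1 and 43.0% in the printed window of Vldlr. Another start-site window of Vldlr (chr19:27216770-27217069), not printed, had 68% and held neither a summit nor a match.

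The peaks at the 5 genes numbered 26 in WT3, 5 in WT4, 0 in edKO3 and 2 in edKO4. Both WT numbers lay above both edKO numbers, and the WT hearts differed from each other more than WT4 did from the edKO hearts. The means were 15.5 ± 14.8 (SD, n = 2) in WT and 1 ± 1.41 (SD, n = 2) in edKO, a difference of 14.5. An exact permutation test over hearts gave a two-sided p = 0.33, the smallest that 2 hearts against 2 allow. Without WT3 the difference was 4 peaks, and without WT4 it was 25. The whole lists differ in the same way, with 19129 and 4697 peaks in the WT hearts (WT3 first) and 8 and 127 in the edKO hearts. The 5 genes thus held 0.136% and 0.106% of the WT lists and 1.57% of the list of edKO4, the last resting on 2 peaks. The lowest summit in a list had 11, 12, 24 and 17 fragments in the same order of hearts. The library background, the most frequent local background in a list, was 2.48, 2.40, 3.13 and 2.96 fragments per position. The edKO3 value rests on 2 of its 8 peaks, and the median local background of that list was 4.13.

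All 5 genes had a peak of WT3, against 64.5% of the 21887 protein-coding genes at this distance. A peak of WT4 lay at 3 of the 5 genes, against 33.5%. A shared region, with overlapping peaks in both WT hearts, lay at the same 3 genes, Lpl, Angptl4 and Lmf1, against 32.4% of all genes. Lpl and Angptl4 had 2 shared regions each and Lmf1 had 1, so 5 of the 4342 shared regions of the series lay at these genes. Within 10 kb, 3 of the 5 genes had a shared region, against 17.5%. An edKO peak lay at 1 gene, Angptl4, against 1.56% of all genes for either edKO heart. The list of edKO3 had none at the 5 genes, against 0.119% of all genes, and edKO4 alone gave 1.52%. The median mean fold enrichment of the strongest shared region was 15.3 for the 3 genes with one and 8.67 for all 7096 protein-coding genes with one. The 15.3 is the value of a single region 47.3 kb from Lpl. Within 10 kb the order turned, with 6.48 for the 3 genes and 8.14 for all genes, and by the peaks of WT4 alone the medians at 50 kb were 8.58 and 6.62.

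**Figure D1:**
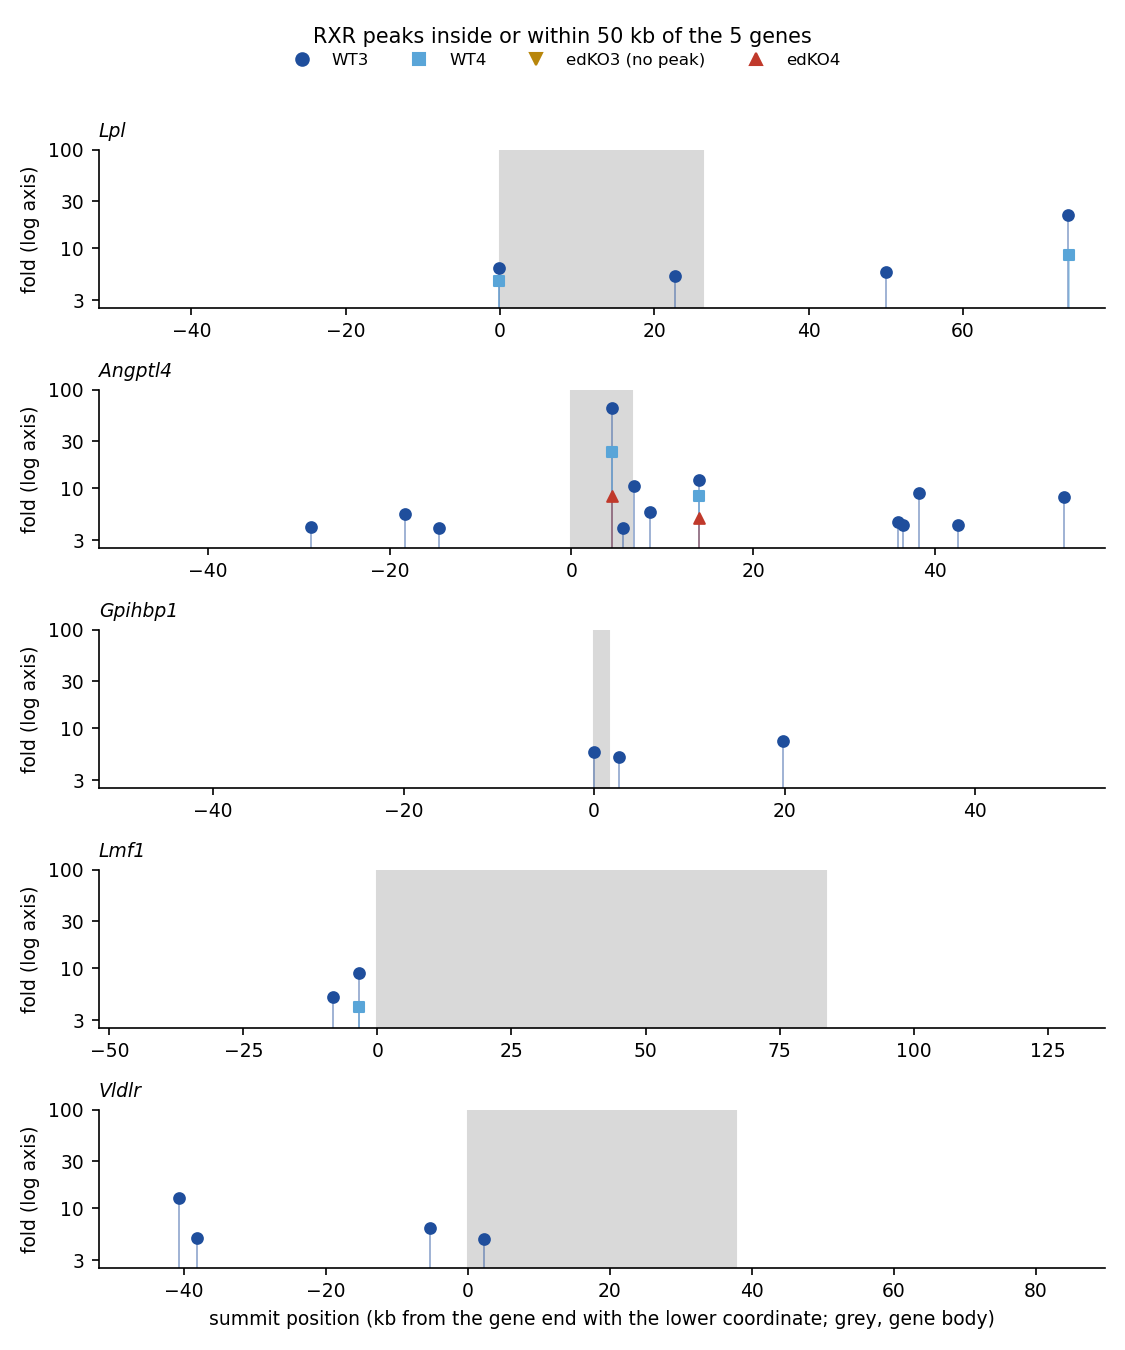
Fold enrichment over local background (log axis) of each RXR peak against the position of its summit in kb from the gene end with the lower coordinate, for Lpl, Angptl4, Gpihbp1, Lmf1 and Vldlr; grey marks the gene body. Angptl4 is the gene with peaks of 3 hearts, with WT3 at 64.9 inside the gene, and Gpihbp1 and Vldlr have peaks of WT3 alone.

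Among the regulators of the lipase, Angptl4 held the strongest region of the 5 genes. Its internal region lay on chromosome 17 from 33778864 to 33779951 (mm10), with the summit 2197 bp inside the gene's higher-coordinate end, and the fold enrichment was 64.9 in WT3, 23.6 in WT4 and 8.37 in edKO4, with no peak in edKO3. WT3 was the highest by far, WT4 stood between, and edKO4 was below both WT hearts. Within the lists this peak ranked 5 of 19129, 53 of 4697 and 29 of 127. Among the shared regions it ranked 9 of 4342 by the mean of the WT hearts, 44.3 ± 29.2 (SD, n = 2).

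The summits of the Angptl4 region fell close together: that of edKO4 lay 2 bp from that of WT3, and that of WT4 lay 25 bp away. The peak was 1088 bp wide in WT3, 782 in WT4 and 567 in edKO4. The summits held 225 fragments in WT3 (95% exact Poisson interval 197 to 256), 84 in WT4 (67.0 to 104.0) and 48 in edKO4 (35.4 to 63.6). These intervals, which cover counting error within a library and not the spread between hearts, did not overlap. The local background at the summit was 4.86 fragments in edKO4 and 2.48 and 2.56 in WT3 and WT4. Relative to the library background, the summit held 90.7 times, 35.0 times and 16.2 times that level in WT3, WT4 and edKO4. The WT mean was 5.29 times the edKO4 value by fold enrichment and 3.88 times by library background. By fold enrichment this ratio was 2.82 without WT3 and 7.75 without WT4. By library background it was 2.16 without WT3 and 5.59 without WT4.

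Another shared region of Angptl4 lay outside the gene, between 33788710 and 33789207 on the same chromosome, its summit 7398 bp past the higher-coordinate end and 21.6 kb from the next protein-coding gene, Kank3. Its fold enrichment was 12.2 in WT3, 8.46 in WT4 and 5.05 in edKO4. The order of the hearts was the same as inside the gene, with a narrower gap. The summits held 45 fragments (32.8 to 60.2), 28 (18.6 to 40.5) and 19 (11.4 to 29.7), and the intervals of WT4 and edKO4 overlapped. The edKO summit lay 6 bp from that of WT4 and 76 bp from that of WT3. The WT mean, 10.3 ± 2.64 (SD, n = 2), was 2.04 times the edKO4 value.

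**Figure D2:**
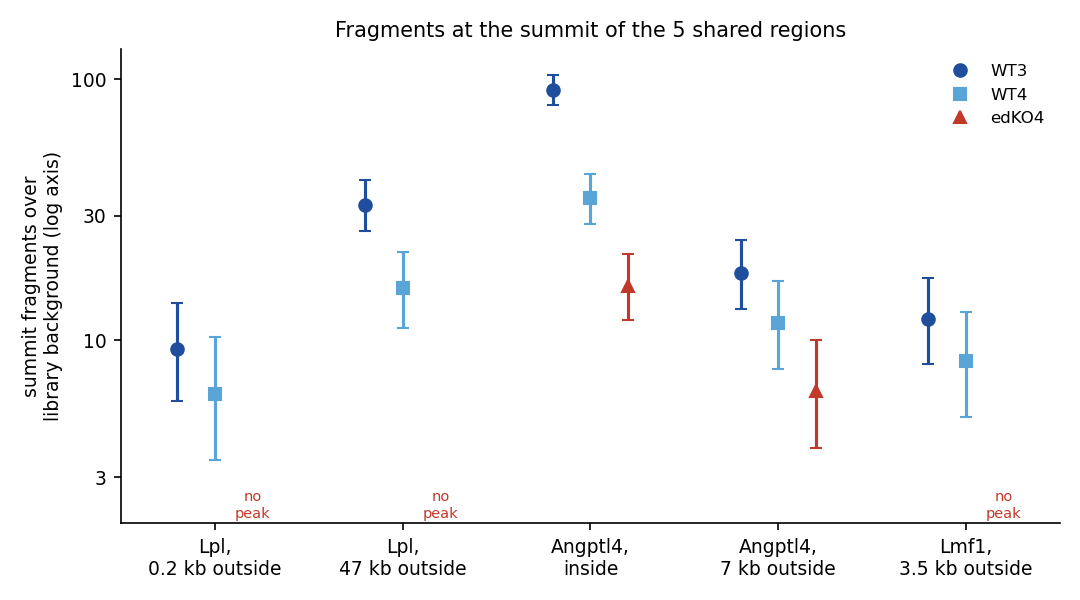
Fragments at the summit divided by the library background (log axis) for the 5 shared regions, with 95% exact Poisson intervals as bars and 1 point per heart. At the internal Angptl4 region the 3 hearts stand at 90.7, 35.0 and 16.2 with separate intervals, and the Lpl and Lmf1 regions have no edKO point because no peak was listed.

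Angptl4 was the gene of the 5 with RXR peaks in edKO4, and its 2 shared regions were set against the rest. Of all 4342 shared regions, 125 had an overlapping peak of edKO4, or 2.88%, and 8 had one of edKO3, or 0.184%. The median WT mean was 26.1 for the regions with an edKO4 peak and 7.71 for those without. All 9 shared regions with a WT mean at least as high as the internal Angptl4 region, itself included, had such a peak. The ratio of WT mean to edKO4 over the 125 regions had a median of 3.99 and ran from 2.02 to 7.66. The internal region stood at the 19th highest place by fold enrichment and at the 88th by library background, so its place in this order depends on the background used. The region 7398 bp outside Angptl4 had the lowest WT mean of the 125 and the second lowest ratio by both measures. Its edKO4 summit held 19 fragments at the library background, where no listed summit of edKO4 had fewer than 18. With this WT mean, a much higher ratio would have left no listed edKO4 peak. The low place in the order thus cannot be told apart from the limit of listing. Whether the genotypes differ less at this region was not tested. Among the 487 shared regions with a WT mean within 1.1 times of its own, 3 had a peak of edKO4, or 0.616%.

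**Figure D3:**
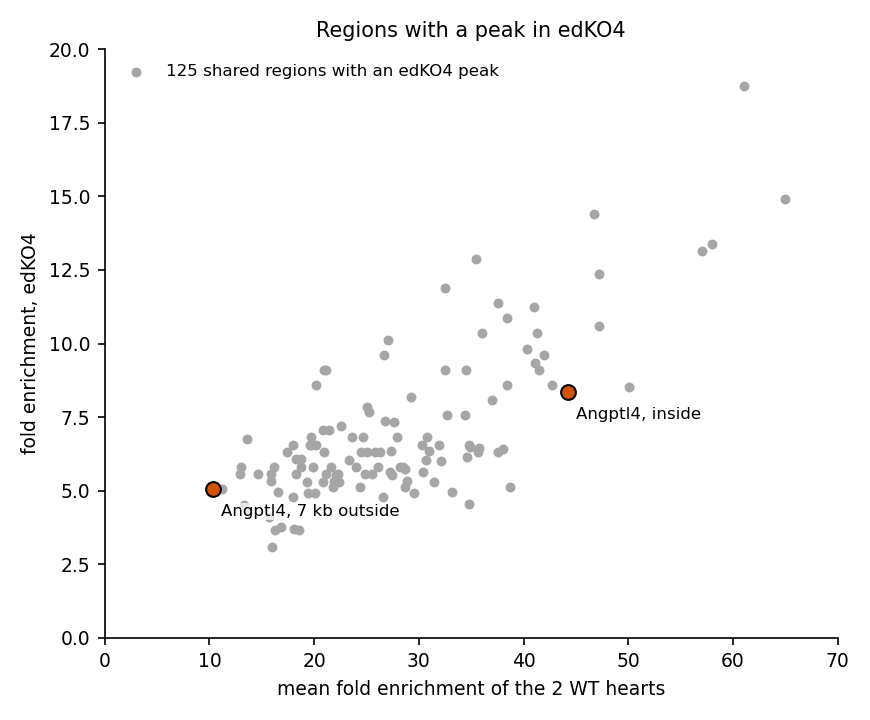
Fold enrichment in edKO4 against the mean fold enrichment of the 2 WT hearts for the 125 shared regions with a peak in edKO4 (1 point per region). The internal Angptl4 region sits at 44.3 and 8.37, and the region outside Angptl4 sits at the left edge, at 10.3 and 5.05.

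WT3 had 13 peaks in the Angptl4 window, a number that 0.553% of protein-coding genes, itself included, reached or passed, and 8 of these summits lay inside other protein-coding genes of a crowded interval. Rab11b, a small GTPase gene, held 3 of them (fold enrichment 4.02 to 5.45), Kank3 held 4 (4.26 to 8.90) and the complex I gene Ndufa7 held 1 (8.18). The other 5 had Angptl4 as the nearest coding gene. Beside the shared regions these were a peak inside the gene (3.98), a peak 256 bp past its higher-coordinate end (10.6, 43 fragments) and a peak 2009 bp past it (5.83). None of these 3 had a partner in another heart.

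Lpl, the lipase gene itself, had a distant shared region that was stronger than the one at the gene. The distant region lay on chromosome 8 from 68953858 to 68954484, 47.3 kb past the higher-coordinate end of Lpl and inside the long noncoding RNA gene Gm32997. Lpl was its nearest protein-coding gene, and the next, Slc18a1, was 83.5 kb away. The fold enrichment was 22.0 in WT3 (82 fragments, 65.2 to 102) and 8.58 in WT4 (38 fragments, 26.9 to 52.2), with no peak in either edKO heart. It ranked 465 of 4342 by the WT mean of 15.3 ± 9.49 (SD, n = 2), and the summits of the hearts lay 30 bp apart. Of 244 shared regions with a WT mean within 1.1 times of it, 8 had a peak of edKO4, or 3.28%. With a distance of 10 kb this region was not counted.

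At the gene, Lpl had a shared region between 68880200 and 68880580 on chromosome 8, and its summit was 167 bp outside the lower-coordinate end in WT3 and 133 bp in WT4. The fold enrichment was 6.36 (23 fragments, 14.6 to 34.5) and 4.67 (15 fragments, 8.40 to 24.7), and neither edKO heart had a peak. The region ranked 3613 of 4342, with the WT intervals overlapping. Of 702 shared regions of similar WT mean, 0 had a peak of edKO4, whose lowest listed fold enrichment was 3.08. At the library background of edKO4, however, no listed summit had fewer than 18 fragments. The WT4 summit at the Lpl gene end held 15, so a signal near the WT4 level stood at the edge of listing. The missing edKO4 peak therefore does not show a lower signal than in WT4. Lpl also had a peak inside the gene (5.30) and a peak 23.6 kb past its higher-coordinate end (5.74), in WT3 alone. No other protein-coding gene lay within 50 kb of Lpl.

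The WT hearts differed more at the strong regions of Angptl4 and Lpl than at most shared regions. The ratio of WT3 to WT4 was 2.75 at the internal Angptl4 region and 2.56 at the distant Lpl region, against a median of 1.49 over all shared regions. It was higher than in 92.8% of regions at Angptl4 and than in 90.4% at Lpl. These shares are over regions of all strengths. The ratio was 2.19 at Lmf1, 1.44 at the outer Angptl4 region and 1.36 at the Lpl gene end. At the distant Lpl region the local background was 2.77 fragments in WT3 and 3.52 in WT4. Relative to the library background its summits held 33.1 times that level in WT3 and 15.8 times in WT4. Both WT hearts nevertheless placed the internal Angptl4 region first and the region at the gene end of Lpl or that of Lmf1 last among the 5.

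**Figure D4:**
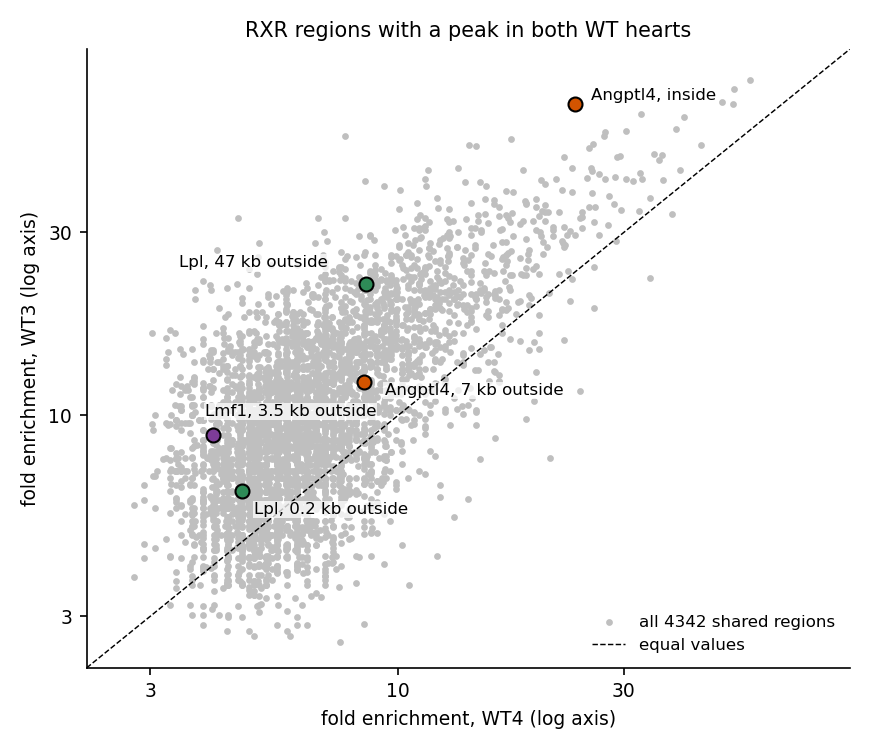
Fold enrichment of WT3 against WT4 (log axes) for the 4342 shared regions in grey, with the 5 regions at Lpl, Angptl4 and Lmf1 coloured and the line of equal values dashed. All 5 lie above the line, and the internal Angptl4 region stands near the top at 64.9 and 23.6.

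Of the genes for the partners of the lipase, Lmf1 had a shared region and Gpihbp1 had none. The Lmf1 region lay on chromosome 17 from 25575580 to 25575893, 3460 bp before the gene's start, with the next protein-coding gene, Sox8, at 5.03 kb. Its fold enrichment was 8.90 in WT3 (30 fragments, 20.2 to 42.8) and 4.07 in WT4 (20 fragments, 12.2 to 30.9). The intervals overlapped, the local background was 2.48 and 4.14 fragments, and the region ranked 2967 of 4342. No edKO heart had a peak there, and 0 of 794 shared regions of similar WT mean had a peak of edKO4. The WT4 summit held 20 fragments, or 8.33 times its library background (5.09 to 12.9). The lowest listed edKO4 summit at library background held 18, on a higher background of 2.96 fragments against 2.40 in WT4. The edKO4 summit outside Angptl4, listed with 19 fragments, stood at 6.42 times. The missing edKO4 peak alone does not tell whether the signal there was lower than in WT4. The other Lmf1 peak, in WT3 alone, was the one in the windows of Cerox1 and Sox8, with a fold enrichment of 5.17 and 17 fragments (9.90 to 27.2), 128 bp from Sox8.

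Gpihbp1, which is expressed in capillary endothelium and not in cardiomyocytes, had 3 peaks of WT3 and none in the other hearts. They lay 60 bp outside its lower-coordinate end (5.74, 19 fragments), 1068 bp past the other end (5.17, 17 fragments) and 18.3 kb past it, inside the zinc finger gene Zfp41 (7.46, 25 fragments). Vldlr had 4 peaks of WT3 and none in the other hearts. The strongest lay on chromosome 19 from 27175613 to 27176014, 40.7 kb before the gene, with a fold enrichment of 12.7 and 47 fragments (34.5 to 62.5). The other peaks of Vldlr lay 38.2 kb before it (5.04), 5250 bp before it (6.32) and inside it (4.88). All 4 summits lay inside the annotated gene Gm35438, which is not protein-coding. No other protein-coding gene lay within 50 kb of Vldlr.

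Whether a peak of WT3 at these genes had a partner in WT4 was then set against its strength. Over the whole list 22.7% of the peaks had a partner, with 5.74% of those under a fold enrichment of 4 and 98.2% of those of 24 and over. At the 5 genes 5 of 26 had one. The 21 without a partner had fold enrichments from 3.98 to 12.7, with a median of 5.30. The strongest of these was the distant Vldlr peak: of 629 peaks within 1.1 times of its fold enrichment, 71.9% had a partner. The next was the Angptl4 peak 256 bp outside the gene, where 57.4% of 978 similar peaks had one. The peak at the Gpihbp1 gene end was of a strength at which 12.7% of 3355 peaks had a partner. The Lpl peak at the gene end had a partner at a strength where 17.5% of 2894 peaks did.

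**Figure D5:**
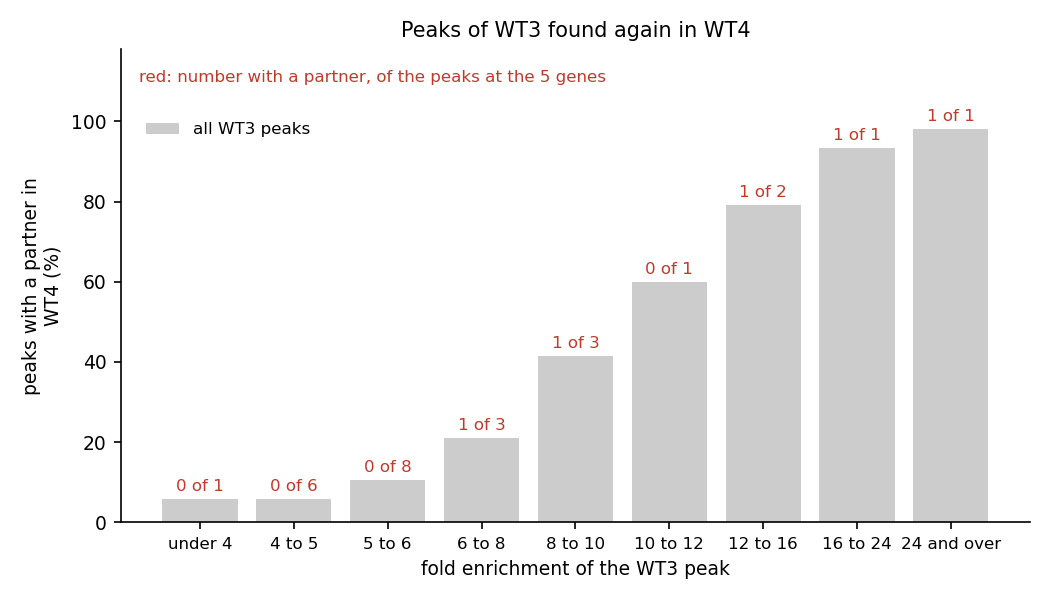
Percent of WT3 peaks with an overlapping peak in WT4 (bars, from 0) by fold enrichment of the WT3 peak. Red counts give the peaks at the 5 genes with a partner, 1 of 1 in the highest class and 0 of 8 between 5 and 6.

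Other genes of lipoprotein hydrolysis and uptake were counted in the same way. Of 31 related genes, 29 had a peak of WT3, 22 a peak of WT4 and 22 a shared region (71.0%, against 32.4% of all protein-coding genes), and the 22 genes had 20 distinct strongest regions. In 8 cases the gene itself was the nearest coding gene to that region. The median of the 22 genes' strongest regions was 9.03, against 8.67 for all genes with one. Shared regions lay at 4 of 4 fatty acid uptake genes, 4 of 5 lipoprotein receptor genes, 2 of 3 heparan sulfate carriers and 2 of 4 lipase genes. They also lay at 7 of 9 genes grouped as LPL regulators and apolipoproteins, and at 3 of 6 grouped as folding, cleavage and transfer. Both of these last groups were loose and took in Angptl2, Angptl6 and Tfpi. Angptl2 and Tfpi were among the genes with a shared region. An edKO peak lay at 1 of the 31, against 1.56% of all genes. Within 10 kb, 12 of the 31 had a shared region, against 17.5% of all protein-coding genes.

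The strongest related region was in the window of Furin, a proprotein convertase gene, with fold enrichments of 41.0 in WT3 and 20.1 in WT4, but it lay 40.3 kb from Furin and nearest to Blm. Hspg2, which encodes the heparan sulfate proteoglycan perlecan, had a region inside the gene (35.4 and 20.4) and was the gene with an edKO4 peak (6.82). Pnpla2, the gene of the intracellular adipose triglyceride lipase, followed (19.9 and 23.0), with the region nearest to Cd151. The fatty acid-binding protein genes Fabp3 (30.7 and 10.8, at 9237 bp) and Fabp4 (22.4 and 10.6, at 5285 bp) came next, each with the gene itself nearest. All of these lay below the internal Angptl4 region in both WT hearts.

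Regions most like those of Angptl4 and Lpl were sought by the distance of log2 fold enrichment over the 2 WT hearts, a description from 2 values per region. Nearest to the internal Angptl4 region were those by Ubash3b (54.8 in WT3 and 27.3 in WT4, log2 distance 0.32), inside Trp53inp2, an autophagy-related gene (53.4 and 27.3, 0.35), and inside Dbp, a circadian transcription factor gene (51.1 and 25.8, 0.37). The Ubash3b region lay 300399 bp from that gene. All 3 also had a peak of edKO4, with fold enrichments of 9.35, 9.80 and 8.59 against 8.37 at Angptl4. Nearest to the distant Lpl region were regions inside Acot7, an acyl-CoA thioesterase gene (22.1 and 8.66, 0.02), Mideas (21.2 and 8.54, 0.05) and Higd1a, a gene of a mitochondrial inner membrane protein (22.1 and 8.90, 0.05). None of these 3 had a peak of edKO4, and neither did the Lpl region.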

How the data were processed

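The RXR antibody was used on 2 WT and 2 edKO total hearts, each with its input. Per the submitters' processing notes, reads went through cutadapt, BWA, SAMtools and MACS3 on mm10; their versions and settings were not given in the sources used here. Peaks had been called per heart, per the labels. The authors' fold enrichment is a ratio at the summit to the local background, and the deposited −log10 p and −log10 q values hold within a list. The deposited narrowPeak score, a multiple of −log10 q, was not used. Deposited starts were made 1-based. Fragments at a summit were recovered from fold enrichment (pseudocount 1) and the −log10 p of a Poisson tail, with 95% exact Poisson intervals. The recovery was tested on simulated data. It gave whole fragments for 100% of peaks of each list at a relative p tolerance of 0.001. Intervals cover counting error only.

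A summit inside or within 50 kb of a gene counted as at that gene, on RefSeq GRCm38.p6 (21887 protein-coding genes). Peaks of the WT hearts overlapping by at least 1 bp formed a shared region, with the summit of WT3. The genotypes' peak numbers were set against each other by exact permutation over hearts. Alternatives were 10 and 100 kb, the nearest gene only, a −log10 p of at least 10, a fold enrichment of at least 5, a 50% reciprocal overlap, each heart left out, and a replicate block. Those of the related genes, the edKO ratios and the median strongest region were chosen after seeing the data.

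All 5 genes and the gene nearest to each shared region at them were named, with the 5 strongest of 31 related genes and the 3 genes with the most similar regions. The genes and lists were chosen with earlier results of these data known. Python 3.11.15, scipy 1.17.1, pandas 2.3.3 and matplotlib 3.10.9 were used.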

Additional observations from a re-analysis of the deposited data

How the results depend on the processing

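The WT minus edKO difference in the number of peaks at the 5 genes was 14.5. It stayed above 0 under all 10 alternatives, from 4 to 25 with 1 heart left out. It was 7.5 at 10 kb, 8.5 at a −log10 p of at least 10 and 9.5 for the nearest gene only, and no setting could give an exact permutation p below 0.33. With the replicate block, which permutes genotypes within the heart number, the difference was again 14.5 and the exact p was 0.5. The labels do not tie the numbers to a litter or day. The 5 shared regions became 3 at a −log10 p of at least 10 and 3 at a fold enrichment of at least 5. At each of these 2 thresholds the genes with a shared region fell from 3 to 2 of the 5, without Lmf1. With 1 WT heart left out no region can be shared, and the count is that of the other heart's peaks, 5 in WT4 and 26 in WT3. The number of genes was then 3 with a peak in WT4 and 5 with a peak in WT3, beside the 3 with a shared region. The 1 gene with an edKO peak ranged from 0 to 1, with 0 without edKO4. At 10 kb, 12 of the 22 related genes still counted, and the strongest shared region of Lpl was the one beside the gene, with a mean fold enrichment of 5.52 in place of 15.3. The other alternatives moved the counts by at most 1.5 times. The lowest listed summit had 11 fragments in WT3 and 17 in edKO4, and sites below such a number were not listed; the part of depth in this was not tested.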
